A study of Mus musculus with 20 samples.

Results

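Genes of the fat cell were followed in RNA of whole mouse colon. The 9 genes were chosen by name: Adipoq, Lep, Retn, Cfd, Plin1, Cidec, Lpl, Fabp4 and Car3. All 9 were found, among 56748 genes listed for mice on standard chow and 31184 genes listed for mice on high fat diet (HFD). The 20 libraries were made from poly-A RNA of flushed, frozen colon and fall into 5 groups of 4 animals. The HFD groups were Vill, the genotype that lacks Pcca under Villin-Cre, and ff, which carries the floxed Pcca alleles. HFD mice were males whose food, with fat supplying 60% of energy, was given for 12 weeks from an age of 6 weeks, and they were killed at 18 weeks. The chow groups were Vill, Alb, the genotype that lacks Pcca under Albumin-Cre, and ff, all killed at 9 weeks. All mice fasted for 4 hours. Villin-Cre acts in the intestinal epithelium, Albumin-Cre in the liver, neither is a driver for adipocytes, and all 5 groups share the floxed alleles. The strain, the stretch of colon taken and any trimming of attached fat are not given in the sources used here.

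White adipocytes store triglyceride in a single large lipid droplet and release hormones, the adipokines, into the blood. In the gut they lie outside the muscle wall, in the mesentery through which vessels and nerves reach the colon. Adipoq encodes adiponectin, Lep leptin, Retn resistin and Cfd adipsin (complement factor D), all secreted. Plin1 and Cidec encode proteins that coat the droplet and make droplets fuse. Lpl encodes lipoprotein lipase, which frees fatty acids from circulating triglyceride, Fabp4 carries fatty acids in the cytosol, and Car3 is a cytosolic carbonic anhydrase abundant in fat. Lpl and Fabp4 are also made outside adipocytes, Lpl in muscle and macrophages and Fabp4 in endothelium and macrophages.

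The promoters of 3 members are shown because Cfd and Lep were the adipokines whose reads shifted most against those of Adipoq between the diets. RefSeq promoters (GRCm38.p6) were found for 6 of the 9 members. Each line below gives the 250 bases before the start site, 5′ to 3′ on the plus strand: Adipoq at chr16:23146286-23146535, Cfd at chr10:79890603-79890852 and Lep at chr6:29059971-29060220. Capitals mark matches to 4 motifs searched on both strands, namely the CCAAT box, the TATA box (TATAAA), the palindrome bound by C/EBP factors (TTGCGCAA) and the DR1 repeat bound by PPARG with RXR, a pair of AGGTCA copies with 1 base between them.
Adipoq: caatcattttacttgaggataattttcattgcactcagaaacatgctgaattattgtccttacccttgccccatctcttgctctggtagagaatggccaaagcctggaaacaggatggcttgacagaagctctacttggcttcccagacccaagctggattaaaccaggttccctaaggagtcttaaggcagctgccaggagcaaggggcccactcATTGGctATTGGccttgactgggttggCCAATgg
Cfd: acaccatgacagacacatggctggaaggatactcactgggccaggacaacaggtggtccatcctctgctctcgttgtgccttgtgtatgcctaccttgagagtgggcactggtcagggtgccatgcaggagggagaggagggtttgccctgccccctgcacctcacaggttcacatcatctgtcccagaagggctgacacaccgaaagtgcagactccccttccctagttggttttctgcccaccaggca
Lep: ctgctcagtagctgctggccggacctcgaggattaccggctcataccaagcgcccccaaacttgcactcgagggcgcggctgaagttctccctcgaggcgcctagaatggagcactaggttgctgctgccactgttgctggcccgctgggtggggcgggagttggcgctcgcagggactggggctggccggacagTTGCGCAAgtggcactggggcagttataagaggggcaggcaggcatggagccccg
The Adipoq window held 3 copies of CCAAT, which was in 33.8% of all 32851 promoter windows of that length. The Lep window held TTGCGCAA, found in 54 of those windows (0.164%). None of the 4 motifs was in the Cfd, Plin1, Retn or Cidec windows. TATAAA was in 12.4% of all windows and the DR1 repeat in 0.0335%.

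Depth was 16.9 to 24.4 M counted reads in HFD libraries and 27.9 to 40.4 M in chow libraries. Pcca averaged 34.2 ± 2.08 CPM, read counts scaled to 1 M reads of a library, in HFD Vill and 43.2 ± 15.5 in HFD ff, and 30.2 ± 2.53 in chow Vill, 45.8 ± 8.81 in chow Alb and 48.3 ± 9.13 in chow ff (SD, n = 4 each). On chow the Vill libraries lay below all ff and all Alb libraries (exact permutation test, 2-sided p = 0.0286 for each, the smallest possible with 4 against 4). On HFD they overlapped with ff (exact permutation p = 0.429), so the HFD Vill label has no such check. Colon epithelium was abundant in every library, with Epcam at 1450 to 1985 CPM on HFD and 1451 to 2073 CPM on chow. The HFD libraries held 0 to 12 Xist reads and 1458 to 2756 Ddx3y reads, and the chow libraries 22486 to 59322 Xist reads and 0 Ddx3y reads. Sex, age, diet and deposited table therefore differ together between HFD and chow and cannot be told apart, and HFD and chow levels are set side by side with no test.

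The adipocyte genes were present in the colon at very different levels from animal to animal, and the same animals were high or low for nearly every member. Their summed reads made up 0.00203% to 0.0133% of an HFD library and 0.00177% to 0.0408% of a chow library. The high chow libraries were Vill 1, Alb 3 and ff 2, 1 in each genotype, and the low ones were Vill 3 and ff 4. Chow ff 2 held the highest level of its group for 9 of 9 members and ff 4 the lowest for 9 of 9. Chow Vill 1 and Vill 3 did the same in their group, with Vill 3 level with Vill 4 at 0 reads for Lep, and Alb 3 was highest for 8 of 9. On HFD, ff 3 was highest for 7 of 9 and Vill 1 for 7 of 9, while ff 4 was lowest for 8 of 9. HFD Vill 3 was lowest for 8 of 9 as well, level with Vill 4 at 0 reads for Cfd, Plin1 and Retn. In bulk tissue, fewer adipocytes and less RNA per adipocyte cannot be told apart.

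**Figure D1:**
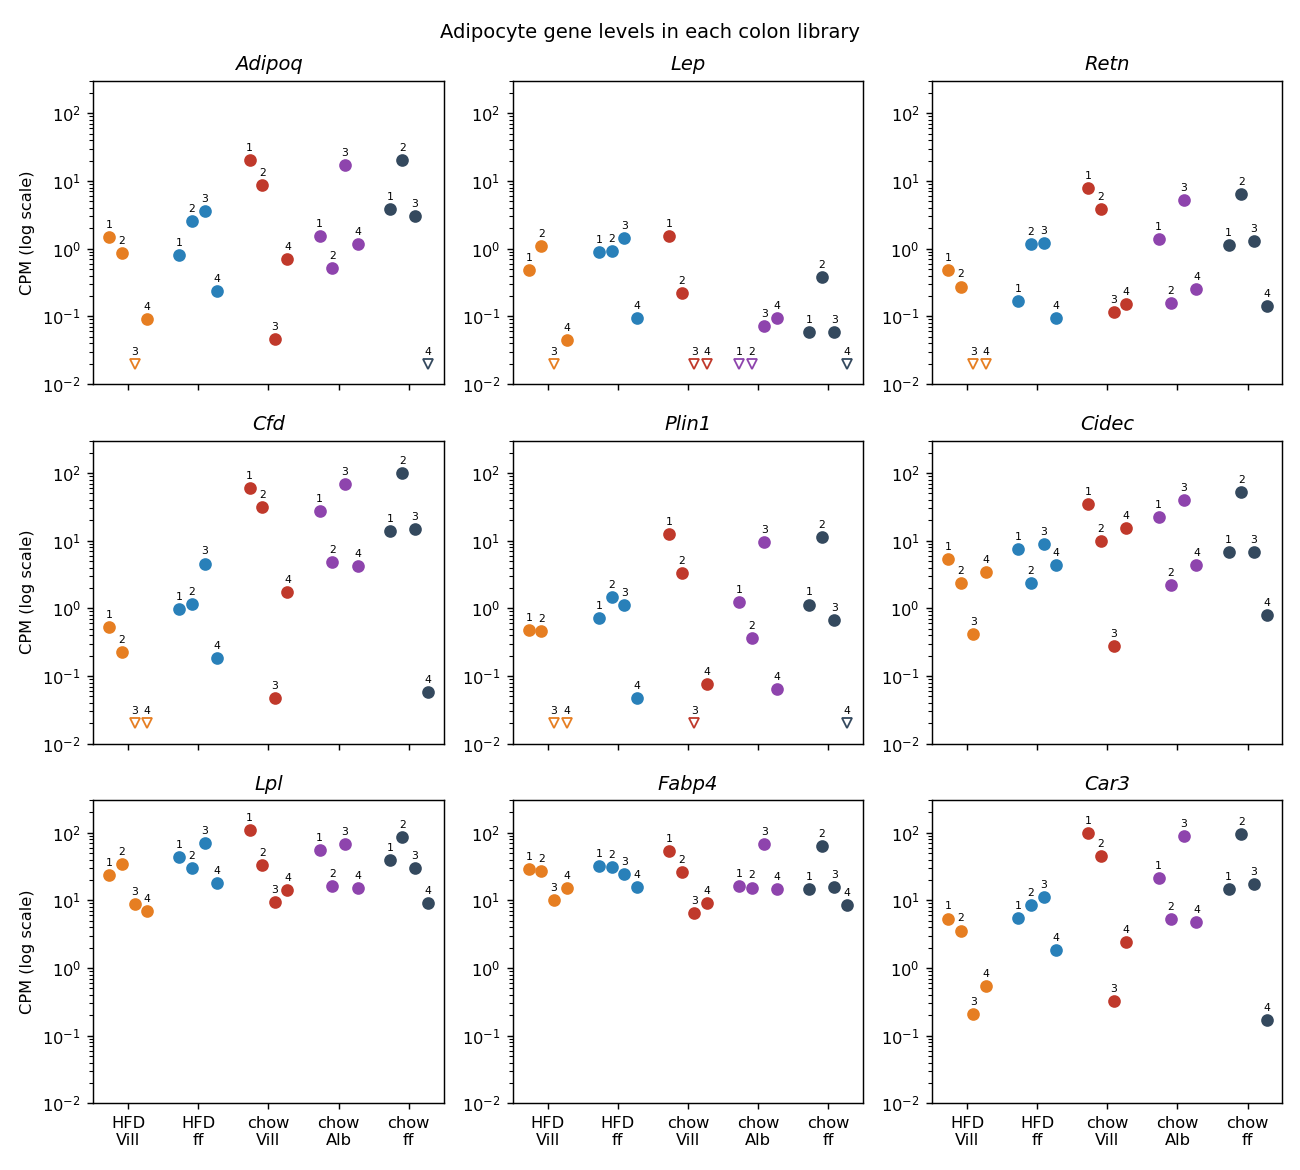
CPM of each adipocyte gene in every library on a log scale, with 1 point per animal numbered by replicate and open triangles at the bottom for libraries with 0 reads. Chow Vill 1, Alb 3 and ff 2 stand at the top of their groups and chow Vill 3 and ff 4 at the bottom, while Lpl and Fabp4 keep above 6 CPM in every library.

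Among the adipokines, Adipoq (chr16:22965286-22976778, mm39) had 1.5, 0.874, 0 and 0.0908 CPM in HFD Vill 1 to 4, against 0.803, 2.6, 3.59 and 0.234 CPM in HFD ff 1 to 4. On chow it had 20.5, 8.6, 0.0469 and 0.694 CPM in Vill 1 to 4, 1.54, 0.519, 17.2 and 1.18 CPM in Alb 1 to 4, and 3.85, 20.4, 3.03 and 0 CPM in ff 1 to 4. Every pair of groups within a diet overlapped. The highest chow library was at least 238-fold above the library with 0 reads, computed against a floor of 3 reads in that library. Intervals and floors here cover counting error only.

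Cfd (chr10:79726687-79728489) was the most abundant member per transcript length on chow. On HFD it had 0.535, 0.23, 0 and 0 CPM in Vill 1 to 4, against 0.973, 1.17, 4.6 and 0.187 CPM in ff 1 to 4. On chow it had 60.7, 31.4, 0.0469 and 1.74 CPM in Vill 1 to 4, 27.5, 4.8, 68.2 and 4.2 CPM in Alb 1 to 4, and 13.7, 98.8, 14.8 and 0.0573 CPM in ff 1 to 4. The lowest chow values, in Vill 3 and ff 4, rest on 2 reads each. The highest HFD level, in ff 3, was exceeded in 8 of the 12 chow libraries.

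Lep (chr6:29060219-29073876) was scarce on both diets. It had 0.482, 1.1, 0 and 0.0454 CPM in HFD Vill 1 to 4 and 0.888, 0.933, 1.46 and 0.0934 CPM in HFD ff 1 to 4. On chow 5 of 12 libraries held no Lep read, and only Vill 1 exceeded 1 CPM, at 1.55. Means were 0.408 ± 0.512 CPM in HFD Vill and 0.843 ± 0.563 in HFD ff, and on chow 0.444 ± 0.747 CPM in Vill, 0.0421 ± 0.0495 in Alb and 0.124 ± 0.173 in ff (SD, n = 4 each). Retn (chr8:3705770-3710110) averaged 0.189 ± 0.234 CPM in HFD Vill and 0.666 ± 0.619 in HFD ff, against 2.98 ± 3.65 in chow Vill, 1.77 ± 2.39 in chow Alb and 2.22 ± 2.78 in chow ff.

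Of the lipid droplet genes, Plin1 (chr7:79369966-79382651) averaged 0.235 ± 0.272 CPM in HFD Vill and 0.841 ± 0.613 in HFD ff. On chow it averaged 4.04 ± 5.99 CPM in Vill, 2.82 ± 4.55 in Alb and 3.25 ± 5.32 in ff (SD, n = 4 each). It was at 0 reads in HFD Vill 3 and 4, chow Vill 3 and chow ff 4, the libraries that were also at or near 0 for Adipoq. Cidec (chr6:113401595-113412721) was detected in every library. It had 5.4, 2.39, 0.418 and 3.4 CPM in HFD Vill 1 to 4 against 7.44, 2.37, 8.98 and 4.44 CPM in HFD ff 1 to 4. On chow it had 35.3, 9.79, 0.281 and 15.3 CPM in Vill 1 to 4, 22.1, 2.18, 40.2 and 4.3 CPM in Alb 1 to 4, and 6.74, 52.3, 6.74 and 0.802 CPM in ff 1 to 4. Chow Vill 4 and HFD Vill 4 were thus low for Plin1 but not for Cidec.

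Of the members, Lpl and Fabp4 had the narrowest fold range on chow. Lpl (chr8:69333143-69360100) ranged from 6.99 CPM in HFD Vill 4 to 69.8 CPM in HFD ff 3, and from 9.11 CPM in chow ff 4 to 111 CPM in chow Vill 1, a 12.2-fold range on chow. Fabp4 (chr3:10269148-10273636) ranged 3.14-fold on HFD and 10.5-fold on chow, from 6.56 CPM in chow Vill 3 to 68.7 CPM in chow Alb 3. Its mean was 23.1 CPM over 8 HFD libraries and 26.1 CPM over 12 chow libraries. Car3 (chr3:14928572-14937583) ranged 53.4-fold on HFD and 572-fold on chow, from 0.172 CPM (6 reads) in chow ff 4 to 98.2 CPM in chow Vill 1.

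Per kilobase of transcript, the order of the members differed between the diets. On HFD the mean levels were 5.14 CPM per kb for Fabp4, 2.82 for Lpl, 2.35 for Cidec, 1.6 for Car3, 1.04 for Cfd, 0.878 for Adipoq, 0.271 for Retn, 0.186 for Lep and 0.116 for Plin1. On chow they were 29.5 CPM per kb for Cfd, 11.5 for Car3, 8.8 for Cidec, 5.82 for Fabp4, 4.68 for Adipoq, 3.88 for Lpl, 1.47 for Retn, 0.725 for Plin1 and 0.0607 for Lep. Cfd led the order on chow and was the fifth on HFD. Each step between neighbours was smaller than the larger SD of the pair over the libraries of that diet, except that from Fabp4 to Lpl on HFD.

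The spread between animals of 1 group was large against that of other genes, least so for Fabp4 on HFD among the members ranked. On the log2(CPM + 0.5) scale the within-group SD on HFD was 1.27 for Car3, 1.05 for Adipoq, 0.98 for Cidec, 0.95 for Lpl and 0.59 for Fabp4, against a median of 0.26 over the 15564 genes with a mean of at least 1 CPM. Their ranks there were 318, 625, 791, 866 and 2485, and 16% of those genes had a larger SD than Fabp4. On chow it was 2.8 for Cfd (rank 20 of 15742 genes), 2.78 for Car3 (rank 21), 2.18 for Adipoq (rank 58), 2.15 for Cidec (rank 63) and 2.02 for Plin1 (rank 83), against a median of 0.27. Retn (1.6), Lpl (1.34) and Fabp4 (1.21) ranked 179, 312 and 430. The chow Lep value of 0.6 was not ranked because its mean lay below 1 CPM. For the same reason Cfd, Plin1, Lep and Retn were not ranked on HFD.

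**Figure D2:**
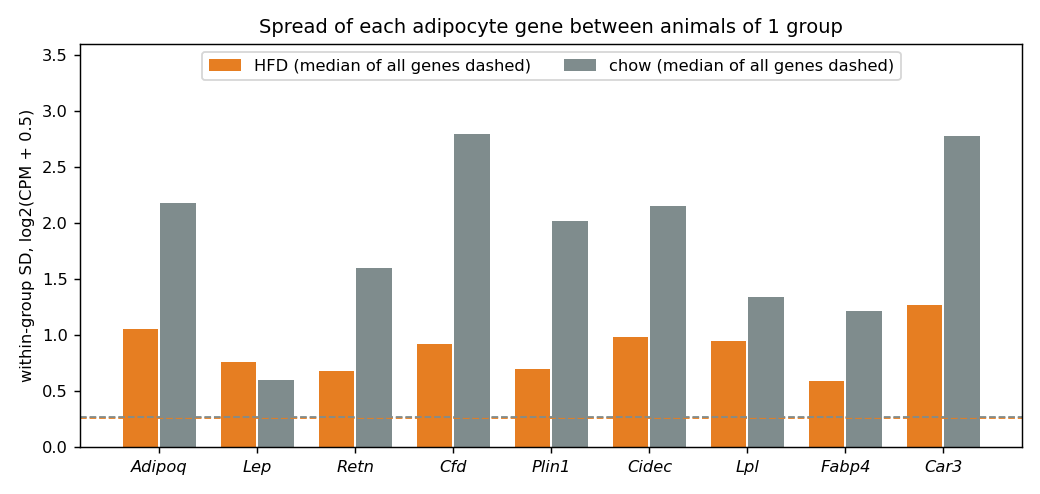
Within-group SD of each adipocyte gene on the log2(CPM + 0.5) scale, pooled over 2 HFD groups (left bar) and 3 chow groups (right bar), with the median over all genes of at least 1 CPM as dashed lines near 0.26 and 0.27. Every bar stands above the dashed lines, and on chow Cfd and Car3 reach 2.8 and 2.78.

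Members moved together across animals after the group means were subtracted. Over the 36 pairs of members the median Pearson r was 0.77 on HFD (8 libraries, range 0.2 to 0.96) and 0.92 on chow (12 libraries, range 0.59 to 1.0), and all 36 were positive on each diet. These are descriptions of libraries that share depth and scaling. Cidec had a median r to the others of 0.43 on HFD, the lowest of the members there, and 0.85 on chow. Lep had the lowest on chow, at 0.74, and 0.83 on HFD.

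The reads of the adipocyte genes did not keep 1 proportion across the diets, although each library supplied both reads of a ratio. As a share of Cfd plus Adipoq reads, Cfd took 43% on HFD (154 of 358 reads, 95% exact Clopper-Pearson interval 37.8 to 48.3%) and 80.7% on chow (10262 of 12713 reads, 80 to 81.4%). Ranges are given for libraries with at least 20 reads of the pair, a minimum set after seeing the data. The Cfd share ran from 20.8 to 56.2% in 5 HFD libraries and from 71.4 to 94.7% in 10 chow libraries. These ranges did not overlap, but below the minimum chow Vill 3 had 50% (2 of 4 reads), within the HFD range. Sex and age differed along with diet. Lep took 34.4% of Lep plus Adipoq reads on HFD (107 of 311 reads, 29.1 to 40%) and 3.08% on chow (78 of 2529 reads, 2.45 to 3.83%). Its share ran from 24.3 to 55.8% in 5 HFD libraries and from 0 to 7.5% in 9 chow libraries, again with no overlap.

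The shares of the other members computed, Retn, Plin1, Car3 and Cidec, differed less between the diets. Retn took 26.4% of Retn plus Adipoq reads on HFD (21.3 to 32%) and 26.7% on chow (25.2 to 28.2%). Plin1 took 31.8% on HFD (26.5 to 37.4%) and 34% on chow (32.5 to 35.5%). Car3 took 79.3% on HFD (76.6 to 81.8%) and 83.6% on chow (83 to 84.2%). Cidec took 78.1% on HFD (75.3 to 80.7%) and 71% on chow (70 to 71.9%). Shares of Lpl and Fabp4 were not computed. Fabp4 had 3989 reads on HFD and 9994 on chow, and Lpl 4966 and 15530, beside 204 and 2451 of Adipoq. Within HFD the summed Cfd share was 23.4% in Vill (15 of 64 reads, 13.8 to 35.7%) and 47.3% in ff (139 of 294 reads, 41.5 to 53.2%). That contrast rests on 2 Vill and 3 ff libraries with at least 20 reads, at 20.8 and 26.3% in Vill 2 and 1 against 30.9 to 56.2% in ff. Within chow the highest Cfd shares were 94.7% in Alb 1 and 90.2% in Alb 2, while Alb 3 and Alb 4 had 79.9 and 78.1%.

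**Figure D3:**
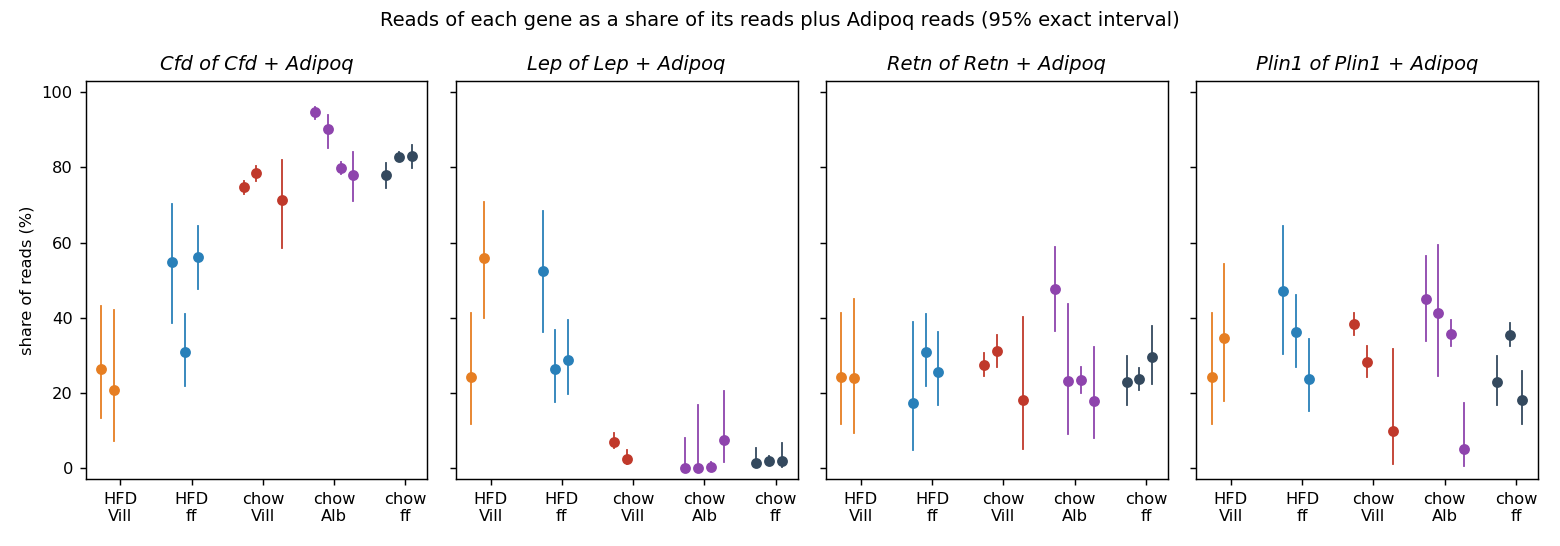
Reads of Cfd, Lep, Retn or Plin1 as a percentage of that gene's reads plus Adipoq reads, for libraries with at least 20 reads of the pair, with 95% exact Clopper-Pearson intervals as vertical lines. The Cfd share lies at 20.8 to 56.2% on HFD and 71.4 to 94.7% on chow and the Lep share at 24.3 to 55.8% and 0 to 7.5%, whereas Retn and Plin1 overlap between the diets.

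A list of other adipocyte genes followed Adipoq on chow, passing the adjustment by r but not by rho. The mean of 28 other adipocyte genes correlated with Adipoq across 12 chow libraries, with group means subtracted (Pearson r = 0.89, exact permutation p = 0.000145, adjusted p = 0.00434, Spearman rho = 0.85, p = 0.00181, adjusted p = 0.0543, over 30 relations). Without chow ff 2 and Vill 1, the libraries farthest from the median, r was 0.83. On HFD r was 0.67 over 8 libraries (rho = 0.64, exact permutation p = 0.0868 for r, adjusted p = 0.372), and 0.62 without HFD ff 3 and Vill 3. None of the other 28 relations, of 14 further lists on each diet, passed the adjustment. The highest of them were the adipokine receptors and Lpl partners on HFD (r = 0.77, rho = 0.76, exact permutation p = 0.0538, adjusted p = 0.323, 0.74 without HFD ff 3 and Vill 3) and the small intestine genes on chow (r = 0.77, rho = 0.7, exact permutation p = 0.0228, adjusted p = 0.263, 0.58 without ff 2 and Vill 1). On chow the receptors and partners and the colon epithelium genes each had r = 0.71 (rho = 0.61 and 0.69, exact permutation p = 0.0268 and 0.0351, adjusted p = 0.263 for both, 0.65 and 0.55 without ff 2 and Vill 1).

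The 6 most abundant of these genes per length were Pnpla2, Dgat2, Pparg, Cebpa, Sncg and Scd1. Pnpla2, the triglyceride lipase ATGL, ranged from 59.3 to 102 CPM on HFD and 94.6 to 179 CPM on chow. Dgat2, which completes triglyceride synthesis, ranged from 35.4 to 110 CPM on HFD and 28 to 132 CPM on chow. Pparg, the master regulator of fat cell formation, ranged from 33.5 to 87.2 CPM on HFD and 30.9 to 124 CPM on chow. Scd1, which desaturates fatty acids, ranged from 17.8 to 46.7 CPM on HFD and 27.7 to 155 CPM on chow. In chow ff 4, with 0 Adipoq reads, Pnpla2 still had 94.6, Pparg 31.2 and Dgat2 32.9 CPM, and their source was not tested. With the mean of Adipoq, Cfd, Plin1 and Cidec, r on HFD was 0.58 for Pnpla2, 0.57 for Dgat2, 0.49 for Pparg, 0.09 for Scd1, 0.37 for Cebpa and 0.48 for Sncg. On chow it was 0.84 for Pnpla2, 0.78 for Dgat2, 0.8 for Pparg, 0.77 for Scd1, 0.16 for Cebpa and 0.6 for Sncg. Of the brown fat genes, Cidea ranged from 0.117 to 0.966 CPM on HFD and 0.0647 to 1.22 CPM on chow, and Dio2 from 0.214 to 1.18 CPM on HFD and 0 to 0.854 CPM on chow. Elovl3 and Otop1 reached at most 0.168 and 0.169 CPM on HFD, and 0.0637 and 0.149 CPM on chow. Cox7a1, also made in muscle, had 10.7 to 20.4 CPM on HFD and 12.7 to 24.1 CPM on chow.

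The 10 genes outside the list whose pattern was most like the mean of Adipoq, Cfd, Plin1 and Cidec on both diets were Adhfe1, Cdkn1c, Akr1e1, Myo19, Dag1, Fam83d, Adrb1, Il17d, Cckar and Myo3a, of 15116 genes ranked. The smaller of their HFD and chow correlations ran from 0.78 to 0.84. The 10 genes were picked for the highest values of all genes ranked, so these correlations are high by selection and were not tested. On HFD, Cfd and Plin1 averaged 0.962 and 0.538 CPM, each with 2 libraries at 0 reads. Adhfe1 had r = 0.9 over 8 HFD and 0.84 over 12 chow libraries, and Adrb1, a beta-adrenergic receptor, 0.85 and 0.79.

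Genes of the gut epithelium were compared with the members in the same way. Fabp2, the enterocyte fatty acid binding protein, ranged from 41.9 to 463 CPM on HFD and 8.27 to 726 CPM on chow. Of the members, Cidec had the highest r with it on chow (r = 0.94, rho = 0.9, exact permutation p = 0.000145 and 0.000289, adjusted p = 0.0026 and 0.00521 over 18 relations of the 9 members, 0.92 without chow Vill 3 and Alb 2). Adipoq had r = 0.71 with Fabp2 on chow (rho = 0.71, exact permutation p = 0.0279, adjusted p = 0.0836), and Lpl passed the adjustment by rho but not by r (r = 0.76, rho = 0.81, exact permutation p = 0.014 and 0.00521, adjusted p = 0.0768 and 0.0469, r = 0.72 without chow Vill 3 and Alb 2). No other relation of a member with Fabp2 passed it. On HFD, r with Fabp2 was 0.18 for Adipoq, -0.04 for Plin1 and 0.0 for Retn (exact permutation p = 0.601, 0.927 and 1). It was 0.26 for Cfd, 0.24 for Lep, 0.32 for Fabp4, 0.37 for Lpl and 0.34 for Car3. On HFD Cidec had r = 0.92 with Fabp2 (rho = 0.88, exact permutation p = 0.0139, adjusted p = 0.0768), but 0.53 without HFD ff 2 and Vill 3, so that relation rests on those libraries. Without the same libraries the other members had r from -0.11 for Fabp4 to 0.7 for Retn, with 0.56 for Adipoq and 0.59 for Cfd. Cidec thus did not stand apart from the other members there. These relations were computed after the levels had been seen. As a share of Cidec plus Adipoq reads, Cidec falls wherever Adipoq is high, so this share cannot test its relation with Fabp2. The shares below are therefore given as a description only, and no conclusion about Fabp2 is drawn from them. Cidec took 97.4% in HFD Vill 4, 95% in HFD ff 4, 95.7% in chow Vill 4 and 93.5% in chow Alb 1. Fabp2 in these libraries was at 309, 359, 509 and 451 CPM. Cidec took 63.3% in chow Vill 1, 70% in chow Alb 3 and 72% in chow ff 2, where Fabp2 was at 572, 639 and 726 CPM. Those libraries were also the highest for Adipoq, at 20.5, 17.2 and 20.4 CPM. At lower Fabp2, Cidec took 53.2% in chow Vill 2 (70.5 CPM) and 80.8% in chow Alb 2 (8.8 CPM). In chow ff 4 (31.8 CPM), where Adipoq had 0 reads, it took 100% of 28 reads.

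**Figure D4:**
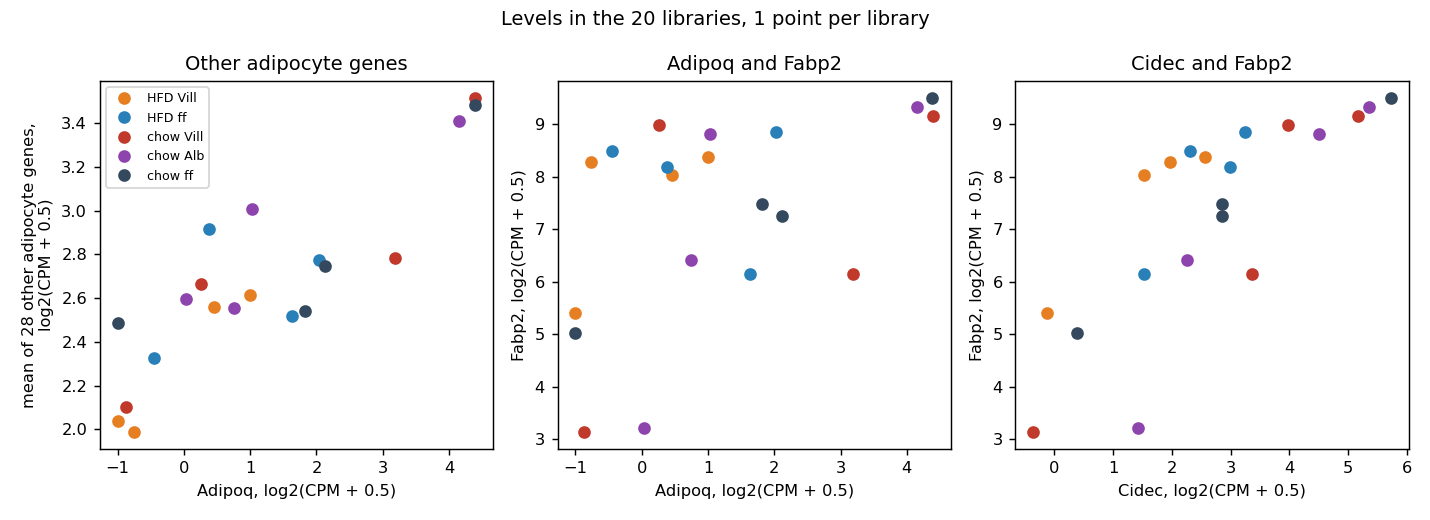
Levels on the log2(CPM + 0.5) scale in the 20 libraries, coloured by group: the mean of 28 other adipocyte genes against Adipoq (left), Fabp2 against Adipoq (middle) and Fabp2 against Cidec (right). The 11 libraries with Fabp2 above 8 on this scale hold Adipoq at 0.0908 to 20.5 CPM.

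Libraries high for adipocyte genes also differed in other tissue markers. Sis, a small intestine enzyme, had 57.7 CPM in HFD ff 1 and 73.8 CPM in HFD ff 3, 60 CPM in chow Vill 1 and 32.9 CPM in chow ff 2, and at most 1.99 CPM in every other library. Chow Vill 1 and ff 2 were also 2 of the 3 libraries highest for Adipoq, whereas Alb 3, the other, had 0.365 CPM of Sis. Summed small intestine markers ran from 66.3 to 394 CPM in HFD Vill, 86.5 to 620 in HFD ff, 31.9 to 697 in chow Vill, 49.6 to 716 in chow Alb and 54.4 to 852 in chow ff. Summed smooth muscle markers ran from 874 to 4903 CPM in HFD Vill, 1809 to 4118 in HFD ff, 988 to 6593 in chow Vill, 4305 to 11276 in chow Alb and 3963 to 8158 in chow ff. Of these markers, Actg2 and Acta2 were the most abundant per kilobase, and Myh11 and Des in CPM. Myh11 had 1134, 3332 and 2272 CPM in chow Vill 1, Alb 3 and ff 2, and 267 and 1043 CPM in chow Vill 3 and ff 4. In HFD Vill 3 and 4 it had 645 and 214 CPM. The smooth muscle mean had r = 0.47 with Adipoq on HFD and 0.59 on chow, and neither passed the adjustment. Ttr, listed as a liver marker, had 2.75, 2.34 and 1.01 CPM in chow Vill 1, Alb 3 and ff 2, the libraries highest for adipocyte genes, and 43.7 and 26.5 CPM in chow Vill 3 and ff 4, the lowest. Cela1, listed as a pancreas marker, had 59.2, 64.3 and 51 CPM in the same high libraries and 385 and 248 CPM in the same low ones. The pancreas-defining Pnlip, Ctrb1 and Prss2 were at or near 0, at most 0.35 CPM in any library. The part of these markers in the fat gene levels was not tested.

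Endothelium and macrophages, the other known sources of Fabp4, were present in every library. Of the endothelial genes, Pecam1, a junction protein, had 16.1 to 34.6 CPM on HFD and 16.5 to 43.2 CPM on chow, and Cldn5, a tight junction protein, 1.27 to 6.01 CPM on HFD and 2.43 to 6.29 CPM on chow. The macrophage complement genes C1qa and C1qb had 8.41 to 15.3 and 6.42 to 12.5 CPM on HFD, and 12.3 to 36 and 12.8 to 38.5 CPM on chow. The relation of either list with Fabp4 was not tested. Neither list passed the adjustment in its relation with Adipoq. On HFD the endothelial mean had r = 0.28 and the macrophage mean r = -0.36 (rho = 0.31 and -0.29, exact permutation p = 0.519 and 0.382, adjusted p = 0.708 and 0.603), and r was 0.54 and -0.29 without HFD ff 3 and Vill 3. On chow they had r = -0.18 and -0.52 (rho = -0.2 and -0.47, exact permutation p = 0.63 and 0.145, adjusted p = 0.727 and 0.417), and r was 0.24 and -0.16 without ff 2 and Vill 1.

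Other lists were led by genes that are not specific to fat. Of the progenitor genes, Sema3c had 125 to 191 CPM on HFD and 141 to 214 CPM on chow, and Dpp4 29.9 to 70.4 CPM on HFD and 24.6 to 68.3 CPM on chow. The epithelial keratin Krt8 had 3246 to 6135 CPM on HFD and 4175 to 6512 CPM on chow, and the colonocyte carbonic anhydrase Car1 261 to 6661 CPM on HFD and 490 to 9655 CPM on chow. The neuronal genes Uchl1 and Ret ran from 0.863 to 29.9 and 4.63 to 26.1 CPM on HFD, and from 4.83 to 43.3 and 4.08 to 33 CPM on chow. Of skeletal muscle genes, Acta1 had 1.56 to 6.05 CPM on HFD and 2.67 to 15 CPM on chow, and Ckm, muscle creatine kinase, 1.41 to 11.8 CPM on HFD and 0.305 to 16.6 CPM on chow. Clps, pancreatic colipase, had 4.75 to 96.4 CPM on HFD and 6.7 to 114 CPM on chow, Rbp2, an enterocyte retinol carrier, 3.21 to 16.8 CPM on HFD and 9.19 to 37.3 CPM on chow, and the albumin gene 0.224 to 10.9 CPM on HFD and 0.0949 to 48.1 CPM on chow. The brown fat and muscle gene Cox8b stayed at or below 0.888 CPM on HFD and 0.886 CPM on chow.

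On HFD the Vill genotype was tested against ff, 2 groups whose Pcca levels overlapped. None of the 8 members tested was called by edgeR (adjusted p under 0.05 over 17715 genes, of which 0.00564% were called), and none by DESeq2 or limma-voom. The members moved together across animals, so a direction that they share does not count as 8 separate results. All 8 had a log2 fold change below 0, with a median of -1.32 against -0.004 over all genes tested. Cfd had the lowest, at -3.18 (SE 1.2, 95% interval -5.91 to -0.46, adjusted p = 0.932 by edgeR's quasi-likelihood test). It was the 1 member with an unadjusted p under 0.05 by edgeR, against 2 members by DESeq2 and 1 by limma-voom. In the authors' deposited table Cfd had a log2 fold change of -3.22 with p = 0.00558 and an adjusted p near 1.

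The remaining HFD values were -1.84 for Plin1, -1.57 for Adipoq, -1.49 for Car3, -1.16 for Lpl, -1.05 for Lep, -1.02 for Cidec and -0.36 for Fabp4, with SE from 0.35 to 1.11. Retn was too low to be tested. Vill 3 lay below all 4 ff libraries for 9 of 9 members and Vill 4 for 8 of 9, while Vill 1 and Vill 2 lay within the ff range for all 9. For Adipoq, Cfd, Plin1, Lep and Retn that order rests on few reads. Vill 3 had 0 reads of each and Vill 4 had 0 to 2, against 1 to 5 in ff 4. The share of all genes with such an order was not computed. Over the 9 members the smallest exact permutation p in HFD was 0.0857, for Cfd. Leaving out HFD ff 3 moved the median to -0.89 and the Cfd value to -2.05, and leaving out Vill 1 moved them to -1.88 and -4.39. The unadjusted p of Cfd no longer fell under 0.05 without ff 3, Vill 2, Vill 3 or Vill 4, where Cfd was at -2.05, -3.29, -2.79 and -2.76. Of 24 other adipocyte genes tested, 21 were below 0 (median -0.41) and none was called. All 8 neuron and glia genes were also below 0 (median -0.72), as were 5 of 6 small intestine genes tested (median -0.70, from -4.91 for Sis to 0.68) and 5 of 8 smooth muscle genes (median -0.11). Sis and Fabp6, a bile acid carrier of the ileum, at -2.05, had an unadjusted p under 0.05 and an adjusted p of 0.932 each by edgeR. The part of these genes in the HFD values was not tested.

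On chow, the Vill genotype gave no shared direction. In Vill against ff, none of 8 members tested was called by edgeR (0.00508% of 19701 genes called), DESeq2 or limma-voom, and none had an unadjusted p under 0.05 in any of these. Log2 fold changes ran from -0.44 for Cfd to 0.43 for Retn, with a median of 0.07 against 0.003 over all genes. Adipoq had 0.13 (SE 1.59, 95% interval -3.34 to 3.6, adjusted p = 1), and SEs of members ran from 0.80 to 1.78 against a median of 0.262 over all genes. Without Vill 1 the median was -1.07, and without ff 2 it was 1.68.

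The Alb genotype, with Albumin-Cre acting in the liver, was also tested against ff. None of 8 members tested was called there (0% of 19701 genes by edgeR, 0 members by DESeq2 and limma-voom, and 0 at an unadjusted p under 0.05 by each). Log2 fold changes ran from -0.42 for Adipoq to 0.18 for Fabp4 (median -0.16), and the median was -1.5 without Alb 3 and 1.32 without ff 2. The 3 chow comparisons share libraries. In Vill against Alb 0 members were called (0.00508% of all genes by edgeR, 0 members by DESeq2 and limma-voom) and 0 had an unadjusted p under 0.05. The median was 0.2, -1.04 without Vill 1 and 1.36 without Alb 3. Lep was too low to be tested on chow.

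**Figure D5:**
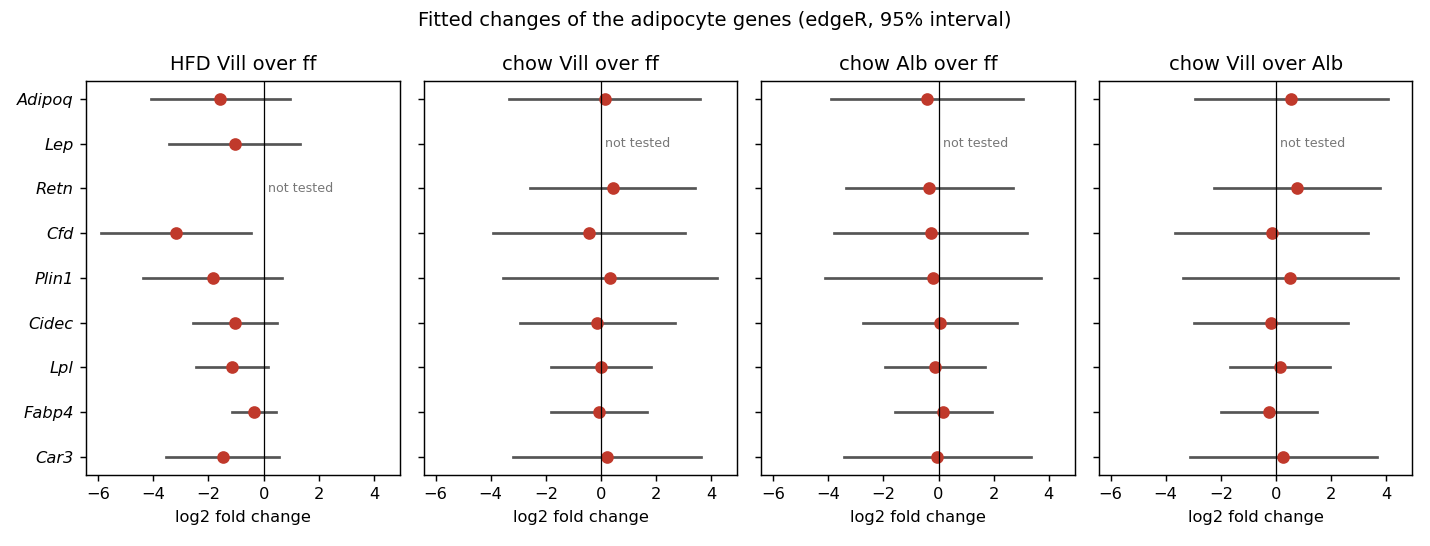
Fitted log2 fold change of each adipocyte gene with its 95% interval (edgeR) in the 4 comparisons, with a line at 0 for no difference. In HFD Vill over ff all 8 points lie left of 0 and 7 of the 8 intervals cross it, while in the 3 chow comparisons every interval crosses 0.

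The difference between the Vill effects on the diets, HFD minus chow, had a log2 value below 0 for all 9 members (median -1.69 against -0.013 over all genes). As the members moved together across animals, these are not 9 separate results. Sex, age and deposited table differed along with diet, so this difference cannot be assigned to diet alone. None of the 9 was called by edgeR (0% of 19516 genes), DESeq2 or limma-voom, and none had an unadjusted p under 0.05 by edgeR. Values ran from -2.86 for Lep (SE 1.99, adjusted p = 1) to -0.26 for Fabp4. Without chow Vill 1 the median was -0.44, and without chow ff 2 it was -3.27.

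Receptors and partners of these proteins showed no called change in any comparison. Cap1, a resistin receptor, ranged from 248 to 431 CPM on HFD and 281 to 446 CPM on chow, and Adipor2, an adiponectin receptor, from 173 to 277 CPM on HFD and 173 to 322 CPM on chow. Of the 9 tested of 12 genes in this group, 4 were below 0 in HFD Vill against ff (median 0.13) and 6 in chow Vill against ff (median -0.1). Gpihbp1, which anchors Lpl on capillaries, had 0.701 to 2.2 CPM on HFD and 0.602 to 2.65 CPM on chow. Mesothelium, which lines the outer surface of the gut, was scarce, with Upk1b at most 3.85 CPM on HFD and 3.47 CPM on chow and Msln at most 1.82 and 3.31 CPM. Its summed markers were 1.99 to 4.54 CPM in HFD Vill, 2.37 to 4.4 in HFD ff, 1.08 to 7.7 in chow Vill, 3.71 to 9.27 in chow Alb and 2.78 to 9.71 in chow ff. Across all 15 lists no gene was called in any of the 5 comparisons by edgeR, DESeq2 or limma-voom, and 23 of 561 edgeR tests of these genes had an unadjusted p under 0.05.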

How the data were processed

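Poly-A RNA of 20 colon samples was analysed from the tables that the authors deposited. Their read counts are raw and 1 column per library, per the file headers, and 28 other columns of per-sample values went unused. The build is mm39, and HISAT2 2.0.5 is named with edgeR 3.22.5, DESeq2 1.20.0 and featureCounts 1.5.0-p3 in the submitters' processing notes, without roles. The annotation release and the strand setting are not given in the sources used here. From the authors' deposited tables, their log2 change of Cfd was read together with its p-value (raw and adjusted). Of the 56748 chow genes, 22157 had no read.

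The test was the quasi-likelihood F test of edgeR 4.0.16 (R 4.3.3) on TMM-scaled counts, after its default expression filter. Separate fits held the 8 HFD libraries, the 12 chow libraries and the 16 ff and Vill libraries. P-values were 2-sided and adjusted by Benjamini and Hochberg over all genes tested, and a gene was called under 0.05. Alternatives were limma-voom (limma 3.58.1), DESeq2 1.42.0, other scalings, no filter and fits without single libraries. CPM are counts scaled to 1 M reads with TMM factors. Correlations used log2(CPM + 0.5) with group means subtracted, and their exact permutation p runs over all reorderings within groups (576 on HFD, 13824 on chow). The exact test of 2 groups of 4 has 70 assignments. The list correlations were planned with random resamples and the member mean, and were run over all reorderings with Adipoq alone, a change made after seeing the data, as was the minimum of 20 reads behind a share. The scripts were tested on simulated data.

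Besides the 9 members, 136 genes in 15 lists written from general knowledge were followed. Of other adipocyte genes the 6 most abundant per kilobase are named, of every other list but 1, which is not reported here, the 2 most abundant, and of all genes the 10 most alike. Sis, Gpihbp1, Epcam, Cidea, Dio2, Elovl3, Otop1, Fabp6, Pnlip, Ctrb1 and Prss2 were named for their role or after their values were seen. Members and lists were chosen with earlier results of these data known. The labels call the samples replicates without saying how animals were assigned, so p-values measure the spread between these samples. Depth was 16.9 to 24.4 M reads on HFD and 27.9 to 40.4 M on chow, and the floor of a library was 3 reads.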

Additional observations from a re-analysis of the deposited data

Results flagged for a closer look

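Of 45 sets of 1 member in 1 group, 1 had a library far from the others by Dixon's 95% criterion, where chance alone flags about 1 set in 20. Fabp4 had 68.7 CPM in chow Alb 3, against 14.6 to 16.5 CPM in the other Alb libraries (gap over range 0.922 on the log2 scale). The same library was highest of its group for 8 of 9 members.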

How the results depend on the processing

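No member was called under any alternative run, and the lowest adjusted p was 0.683 in HFD Vill against ff, 0.983, 0.826 and 0.683 in the chow comparisons (Vill against ff, Alb against ff, Vill against Alb) and 1 for the difference between diets. In HFD Vill against ff every member tested stayed below 0 under every alternative, with a median from -1.97 (limma-voom) to -0.89 (without HFD ff 3), and -1.06 without HFD ff 1 and 3, the libraries with Sis. Over all genes DESeq2 called 2 in that comparison and 3, 11 and 90 in the chow ones, against 1, 1, 0 and 1 by edgeR. The difference between diets moved to -2.62 with the replicate block, and ran from -3.27 to -0.44 with 1 library left out.

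The chow directions depended on single libraries. With 1 library left out, chow Vill against ff ran for Adipoq from -1.15 to 1.69, Cfd -1.54 to 1.29, Plin1 -1.5 to 2.73, Retn -0.69 to 1.79, Cidec -1 to 1.67, Fabp4 -0.87 to 0.88, Lpl -1.16 to 0.66 and Car3 -1 to 1.78. Chow Alb against ff ran for Adipoq from -2.67 to 1.17, Cfd -1.4 to 1.47, Plin1 -2.55 to 2.23, Retn -1.9 to 1.05, Cidec -0.81 to 1.87, Fabp4 -0.72 to 1.17, Lpl -0.54 to 0.55 and Car3 -1.6 to 1.54. Chow Vill against Alb ran for Adipoq from -0.73 to 2.78, Cfd -1.26 to 0.93, Plin1 -1.29 to 2.84, Retn -0.35 to 2.3, Cidec -1.04 to 0.66, Fabp4 -1.05 to 0.62, Lpl -1.04 to 0.53 and Car3 -0.95 to 1.79. The lowest values came without the high library of the group on top (Vill 1 or Alb 3), and the highest without that of the other group (ff 2 or Alb 3).

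Other log2 values that changed sign were these, and the cause was not tested. With limma-voom, Plin1 was -0.39, Retn -0.24, Lpl -0.26 and Car3 -0.09 in chow Vill against ff, Adipoq 0.53, Cfd 1.12, Plin1 0.32 and Car3 0.82 in Alb against ff, and Adipoq -0.30, Plin1 -0.71, Lpl -0.20 and Car3 -0.92 in Vill against Alb. With the replicate block, whose numbers do not pair these samples (correlations of same-numbered samples from -0.71 to 0.63), Cfd was 0.11, Cidec 0.72, Fabp4 0.02 and Lpl -0.15 in Vill against ff. The block gave Adipoq 0.86, Cfd 1.16, Plin1 0.74, Retn 0.19, Lpl 0.06 and Car3 1.22 in Alb against ff, and Adipoq -0.23, Plin1 -0.04, Cidec 0.01, Lpl -0.21 and Car3 -0.54 in Vill against Alb. Without chow ff 2 and Vill 1, chosen after seeing the data, Cfd was 0.22, Cidec 0.83, Fabp4 0.12 and Lpl -0.48 in Vill against ff. Lpl was -0.00068 there with only the 2 groups fitted, and Car3 was 0.0044 in Alb against ff with library totals only.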
